A study of Mus musculus with 20 samples.

Results

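Aminoacyl-tRNA synthetases are the enzymes that join each amino acid to its tRNA, and every protein a cell makes depends on them. Most amino acids have 1 enzyme for the cytosol and a separate nuclear-encoded enzyme for mitochondria, whose symbol ends in 2. In the cytosol, 8 of the enzymes measured here sit together with 3 scaffold proteins in the multisynthetase complex, and the others act outside it. The genes were chosen by symbol from the 14299 genes of the count table, which gave 37 synthetase genes, 20 of them cytosolic and 17 mitochondrial. Kars and Gars were counted as cytosolic by their symbol, although both are also known to supply mitochondria.

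The cells were primary ovarian surface epithelial (OSE) cells of the mouse, which form the outer cell layer of the ovary. After 48 hours without hormone they received 100 nM of the estrogen estradiol (E2), or ethanol vehicle (0.0002% in the medium), and were collected at 15 days. Control cells came from 10 columns of a Fluidigm C1 circuit and E2-treated cells from 9 columns, and each column was 1 library of 3′-end cDNA. Each condition was presumably 1 cell suspension loaded through 1 inlet, which the labels do not state. E2 and suspension therefore cannot be told apart, and p-values measure only the spread between libraries, which may be technical. No age or genetic alteration of the mice is given in the labels. The 589 cells were split by the authors' 2-cluster labels into 421 responsive cells and 168 cluster 1 cells, the smaller group.

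For each library the counts of its responsive cells were added up, and likewise those of its cluster 1 cells. Levels are CPM, which is the count relative to the total of the sum after scaling by the TMM method, a correction for differences in RNA composition. The sums of responsive cells held 2136833 to 3903973 reads from 15 to 30 cells, and those of cluster 1 held 233982 to 2223981 reads from 3 to 18 cells. The 7 E2-treated cluster 1 sums held at most 771449 reads. All 10 OSE markers were read in all 4 combinations of cluster and condition, with a summed level of 4217 to 7096 CPM. E2 library 15 stood apart: its responsive cells had 4783 CPM of summed fibroblast markers, against 1697 to 2182 CPM in the other 8 E2 libraries, and it was the highest or lowest E2 library for 50.5% of all genes tested and for 14 of 32 synthetase genes. For Rars, Iars, Dars, Sars, Lars2 and Yars2 the change with E2 in responsive cells is also given without it.

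Rars, which encodes the arginyl-tRNA synthetase of the multisynthetase complex, was the one synthetase gene called between E2-treated and control responsive cells. Called means that edgeR's quasi-likelihood test gave a Benjamini-Hochberg adjusted p under 0.05 and that the log2 fold change was beyond 0.5 in either direction. Of the synthetase genes, 32 had enough reads for the test, all 20 cytosolic and 12 of 17 mitochondrial ones. Over all 10265 genes tested, 1.37% were called and 0.848% were called higher, beside 1 of 20 cytosolic and 0 of 12 mitochondrial synthetase genes, so a single call does not set the family apart. DESeq2 and limma-voom also called 1 of the 32. The median log2 fold change was -0.05 over the cytosolic genes and -0.09 over the mitochondrial genes, and 0.02 over all genes tested.

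Rars lies on the minus strand of chromosome 11 at chr11:35808381-35834506 (GRCm38). In responsive control cells its level ranged from 172 to 372 CPM over 10 libraries, with a median of 287 CPM. In E2-treated responsive cells it ranged from 488 to 878 CPM over 9 libraries, with a median of 558 CPM. Every E2 library was above every control library, a separation upward that 0.273% of all genes tested showed. The means were 283 ± 63.6 CPM (SD, n = 10) in control and 592 ± 122 CPM (SD, n = 9) in E2-treated cells. The log2 fold change of Rars was 1.07 (SE 0.15), with an adjusted p of 4.0e-05 in edgeR. The 878 CPM library was E2 library 15, and without it the log2 fold change of Rars was 0.99 with an adjusted p of 1.4e-05 in edgeR. E2-treated responsive cells were also sequenced less deeply, at a median of 117809 reads per cell against 143233 in control, and with each cell thinned to 20000 reads the log2 fold change of Rars was 1.10.

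**Figure D1:**
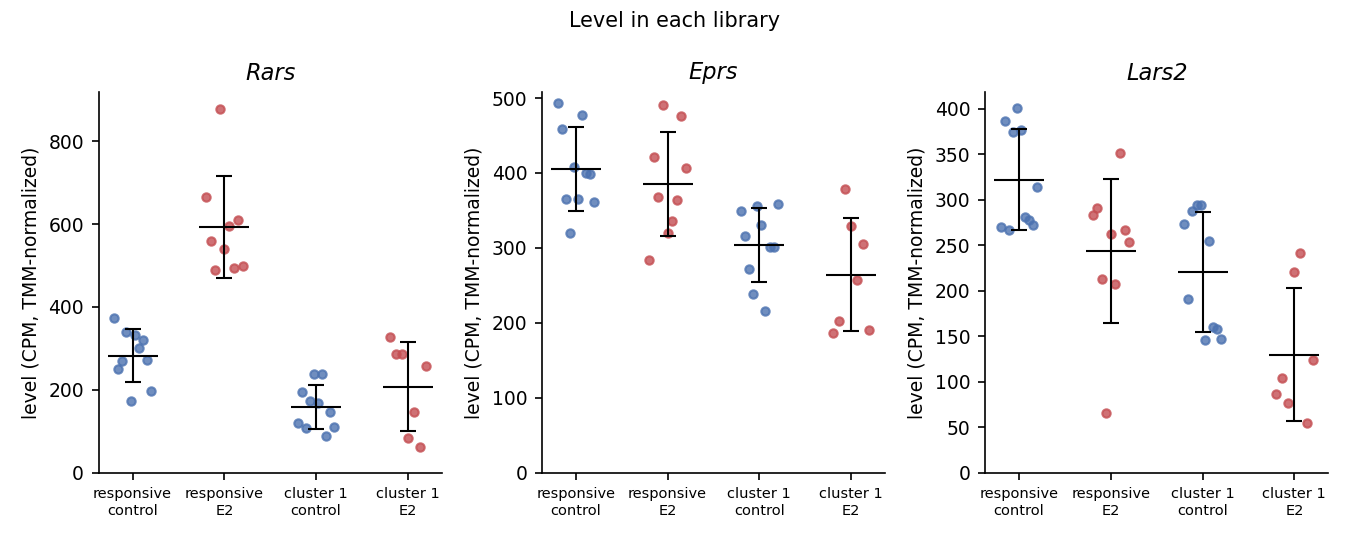
Level of Rars, Eprs and Lars2 in CPM (y axis) in each library (points) of the 4 combinations of cluster and condition (x axis), with the mean and SD over libraries as bars. The 9 E2 libraries of responsive cells are all at or above 488 CPM of Rars, and the 10 control libraries are at or below 372 CPM, while the groups overlap for Eprs and Lars2.

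The share of cells with a read was counted as well. Rars was read in 187 of 203 responsive control cells and in 212 of 218 E2-treated responsive cells, which is 92.6% ± 7.68 (SD over 10 libraries) and 97.3% ± 2.68 (SD over 9 libraries). After thinning to 20000 reads per cell these shares were 80.5% ± 9.32 in control and 93.3% ± 3.93 with E2. The difference was within the sum of the SDs before thinning and also, by a small margin, after it. The reads were spread over cells, and no cell held more than 1.61% of all Rars reads. No stretch of 31 bases in the annotated Rars transcripts occurs in a transcript of another gene, and no annotated gene overlaps Rars. No cell type lacks these enzymes, so no share of cells without the gene was available as a background for free RNA.

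Among the cytosolic enzymes Rars took a larger part of the summed level with E2. Rars made up 11.2% ± 2.40 of the cytosolic sum in responsive control cells and 22.0% ± 2.42 in E2-treated responsive cells. The summed level of the 20 cytosolic genes was 2525 ± 231 CPM in control and 2674 ± 266 CPM with E2. Without Rars the same sum was 2242 ± 220 CPM in control and 2081 ± 159 CPM with E2, and both differences were smaller than the sum of their SDs.

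The other 7 enzymes of the multisynthetase complex were not called. Eprs, a fused enzyme for glutamate and proline, ranged from 320 to 493 CPM in control and from 284 to 491 CPM in E2-treated responsive cells, so the groups overlapped almost fully. Its log2 fold change was -0.06 (SE 0.12). Iars, for isoleucine, had the second largest absolute change among the cytosolic genes. Its level was 20.9 to 119 CPM (median 49.0) in control and 26.9 to 188 CPM (median 61.9) with E2, which overlap, and the log2 fold change was 0.51 (SE 0.33, adjusted p = 0.70 in edgeR). Without E2 library 15 the log2 fold change of Iars was 0.25 (SE 0.32). Mars, the methionine enzyme, was at 55.1 ± 18.5 CPM in control and 65.5 ± 24.6 CPM with E2, a log2 fold change of 0.26. Dars, the aspartate enzyme, was at 51.2 ± 16.5 CPM in control and 52.3 ± 46.4 CPM with E2, where E2 library 15 alone had 172 CPM and the other 8 at most 58.0 CPM. Its log2 fold change was 0.02, and -0.44 (SE 0.27) without that library.

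The enzymes of the complex for lysine, glutamine and leucine lay below 0 on the log2 scale, by no more than their SE. Kars was at 69.1 ± 25.6 CPM in control and 58.3 ± 15.8 CPM with E2 (-0.24, SE 0.24). Qars was at 130 ± 37.9 CPM in control and 114 ± 41.4 CPM with E2 (-0.18, SE 0.23). Lars was at 77.3 ± 29.5 CPM in control and 70.0 ± 35.1 CPM with E2 (-0.14, SE 0.30). Over the 8 genes of the complex the median log2 fold change was -0.02, and Rars was the one gene of the complex with an unadjusted p below 0.05.

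The 3 scaffold proteins of the complex, Aimp1, Aimp2 and Eef1e1, were all tested and none was called, by edgeR, DESeq2 or limma-voom. None had an unadjusted p below 0.05, beside 9.89% of all genes tested in edgeR. Their log2 fold changes lay between -0.52 and 0.04 in responsive cells.

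None of the 12 cytosolic enzymes outside the complex was called, with log2 fold changes from -0.31 to 0.23. Sars, for serine, had the largest absolute change of them. It was read at 177 to 381 CPM (median 220) in control and at 61.2 to 305 CPM (median 177) with E2, which overlap, and its log2 fold change was -0.31 (SE 0.22, adjusted p = 0.73 in edgeR), and -0.19 without E2 library 15. Nars, for asparagine, is the member with the smallest relative spread over control libraries, at a coefficient of variation of 13.4%. Its level was 325 ± 43.7 CPM in control and 278 ± 38.2 CPM with E2. The log2 fold change of Nars was -0.22 (SE 0.12, adjusted p = 0.61 in edgeR), and its libraries overlapped.

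The alanine enzyme Aars was at 171 ± 40.0 CPM in control and 141 ± 41.8 CPM with E2, a log2 fold change of -0.27. The glycine enzyme Gars was at 130 ± 38.3 CPM and 119 ± 44.1 CPM in the same order (-0.11). The tyrosine enzyme Yars was at 135 ± 26.3 CPM and 119 ± 25.1 CPM (-0.18). Each of these 3 differences was smaller than the SDs of its groups. Hars, for histidine, was at 73.2 ± 26.5 CPM in control and 62.6 ± 14.6 CPM with E2 (-0.22).

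Cars, for cysteine, was at 60.6 ± 32.3 CPM in control and 70.5 ± 28.3 CPM with E2, a log2 fold change of 0.23. Tars, for threonine, was at 99.9 ± 37.4 CPM and 110 ± 40.3 CPM in the same order (0.15). Vars, for valine, was at 21.7 to 62.5 CPM (median 25.9) in control and at 16.2 to 57.3 CPM (median 28.8) with E2 (0.14). Wars, for tryptophan, was at 50.0 ± 15.8 CPM in control and 48.8 ± 19.1 CPM with E2. The subunits of the phenylalanine enzyme overlapped between groups, Farsa at 31.5 ± 10.5 CPM and 30.4 ± 22.5 CPM, and Farsb at 52.5 ± 24.7 CPM and 53.9 ± 24.2 CPM. Over the 20 cytosolic genes the log2 fold change was above 0 in 8 and below 0 in 12.

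**Figure D2:**
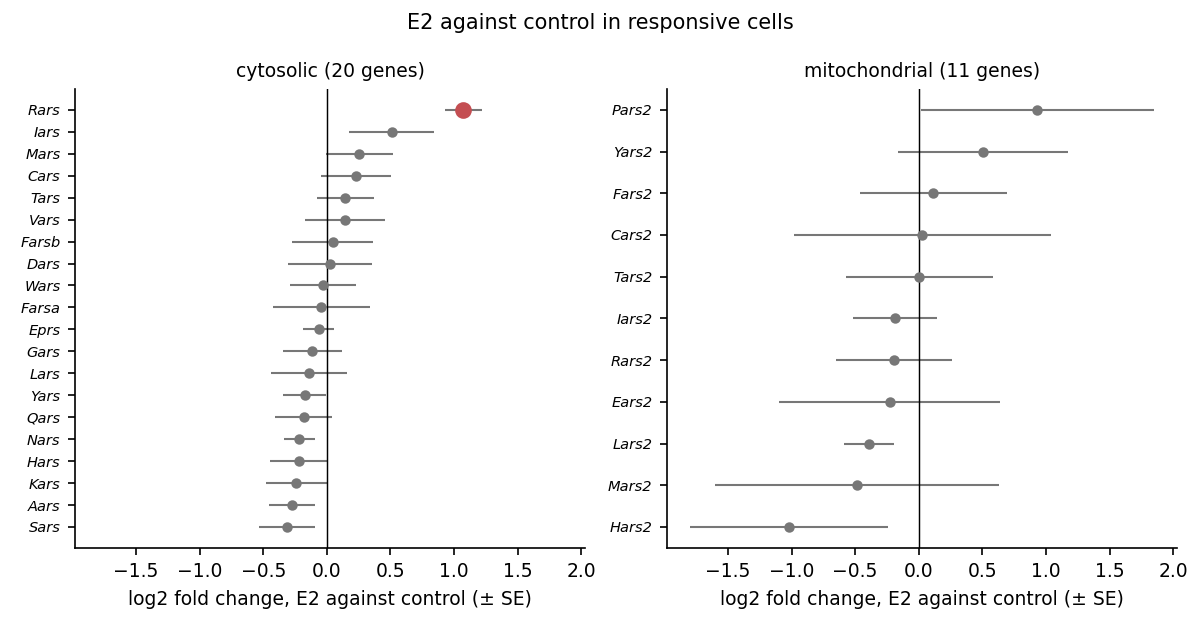
Log2 fold change of E2 against control in responsive cells (x axis, bars are ± 1 SE from edgeR) for the 20 cytosolic (left) and 11 mitochondrial (right) synthetase genes shown. Rars, in red at 1.07, is the one gene called, and the mitochondrial genes other than Lars2 have wider errors than most cytosolic ones.

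The mitochondrial enzymes were read in few cells, with 1 exception. Lars2, the mitochondrial leucine enzyme, was read in 560 of 589 cells and made up 57.8% ± 7.03 of the summed mitochondrial level in responsive control cells. Its level was 267 to 401 CPM (median 298) in control libraries and 65.5 to 351 CPM (median 262) in E2 libraries of responsive cells. The groups overlapped, although 6 of the 9 E2 libraries were below every control library, and the lowest value was that of E2 library 15. The log2 fold change of Lars2 was -0.39 (SE 0.20, adjusted p = 0.54 in edgeR), and -0.26 (SE 0.12, adjusted p = 0.49 in edgeR) without that library.

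Large absolute changes among the mitochondrial genes were in genes near the limit of detection, and none was called. Hars2, for histidine, was at 0 to 33.1 CPM (median 17.3) in control and at 0 to 22.9 CPM (median 5.85) with E2, with a log2 fold change of -1.02 (SE 0.78, adjusted p = 0.78 in edgeR). Its transcripts overlap those of Hars on the opposite strand and share sequence with them, at the 5′ ends of both genes. Of the values above 0, 98.4% were whole in Hars2 and 100% in Hars, so few counts were divided between genes. Pars2, for proline, was at 0 to 11.4 CPM (median 2.79) in control and at 0 to 25.4 CPM (median 6.24) with E2, with a log2 fold change of 0.93 (SE 0.91, adjusted p = 0.86 in edgeR), and leaving out 1 library at a time gave 0.41 (without E2 library 12) to 1.10. The groups overlapped in both genes.

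The further mitochondrial genes given here for responsive cells lay between -0.49 and 0.50 on the log2 scale. Iars2, read in 261 cells, lay at -0.19. Of its 31-base stretches, 2004 also occur in Rab3gap2 on the opposite strand, although 96.2% of its nonzero values were whole. How far the reads of Iars2 are uncertain was not tested. Rars2, read in 165 cells, was at 30.7 ± 10.4 CPM in control and 26.6 ± 16.4 CPM with E2, so the mitochondrial arginine enzyme had no difference beyond its spread. Tars2, for threonine and read in 134 cells, lay at 0.01, and Fars2, for phenylalanine and read in 116 cells, at 0.11. Cars2, for cysteine and read in 52 cells, lay at 0.03. In Cars2, 368 of its 31-base stretches also occur in Naxd on the opposite strand, and in Fars2 473 occur in Nrn1, likewise opposite. Of the nonzero values, 55.8% were whole in Cars2 and 99.1% in Fars2, so the reads of Cars2 are uncertain. Ears2, for glutamate, was read in 50 cells and lay at -0.23. Yars2, for tyrosine, was read in 46 cells and lay at 0.50, and at 0.12 without E2 library 15. Mars2, for methionine, was read in 21 cells and lay at -0.49, and at -1.21 without E2 library 12. The 5 genes that did not pass the filter on low counts were Aars2, read in 21 cells, Nars2 in 30, Sars2 in 33, Wars2 in 43 and Vars2 in 56 cells.

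The number of different synthetase genes with a read was also counted per cell. After thinning to 20000 reads, a responsive cell had reads of 9.52 ± 0.476 cytosolic genes in control and 8.71 ± 0.900 with E2, as means over libraries. For the mitochondrial genes these numbers were 2.26 ± 0.315 in control and 2.13 ± 0.421 with E2. In both compartments the difference was within the sum of the SDs.

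**Figure D3:**
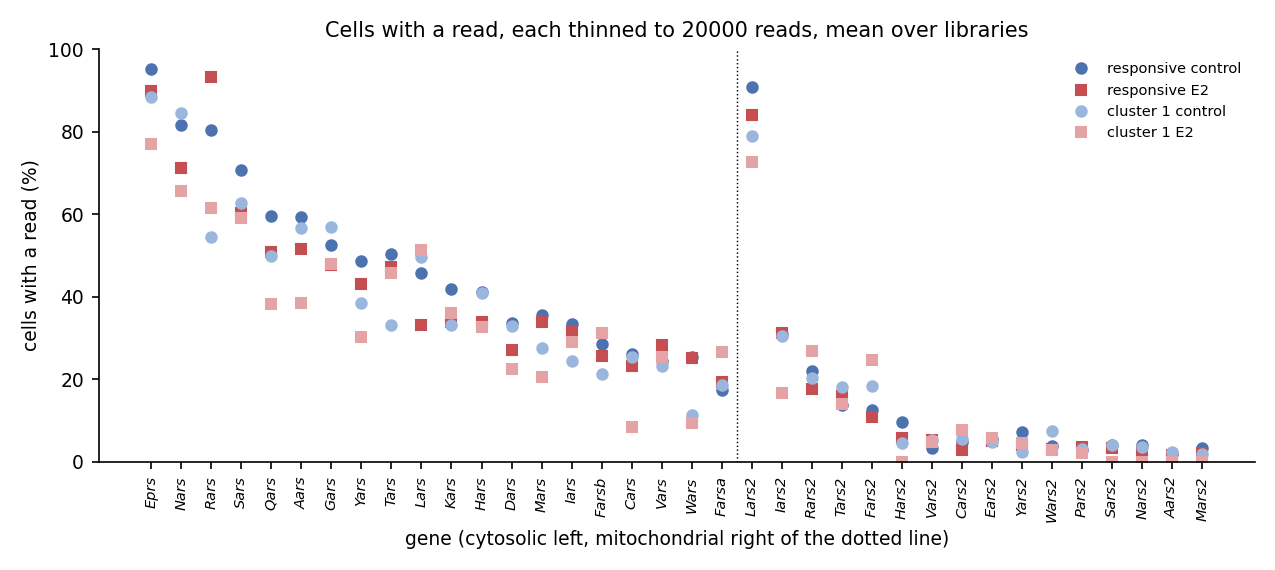
Share of cells with at least 1 read (y axis, percent, mean over libraries) of 36 synthetase genes (x axis) after thinning each cell to 20000 reads, for the 4 combinations of cluster and condition. Rars is at 80.5% in control and 93.3% in E2-treated responsive cells, and among the mitochondrial genes Lars2 is the one read in most cells.

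Cells of cluster 1 gave no called synthetase gene between E2 and control. All 20 cytosolic and 5 mitochondrial genes were tested there, and 0 of 25 were called, beside 7 of 8340 genes (0.0839%) overall. DESeq2 and limma-voom also called 0 of the 25. At an unadjusted p below 0.05 edgeR had 1 of the 25, Lars2, beside 7.46% of all genes tested there. In simulated data of this size, 3% of genes changed by 1 on the log2 scale were recovered in cluster 1 sums, against 34% in responsive sums, over genes of all levels.

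Rars in cluster 1 was at 88.7 to 239 CPM (median 158) in control and at 62.9 to 328 CPM (median 257) over the 7 E2 sums. The groups overlapped, 4 of the E2 sums being above every control sum and 2 below every one. Its log2 fold change was 0.45 (SE 0.35, adjusted p = 0.85 in edgeR). The difference between the clusters in the effect of E2, tested as an interaction term over both clusters, was -0.68 for Rars (SE 0.35, p = 0.057, adjusted p = 0.48 in edgeR), so a difference between the clusters was not shown. No synthetase gene of the 36 in that fit was called, beside 0.184% of 11398 genes. In edgeR 1 of the 36 had an unadjusted p below 0.05, beside 10.9% of all genes tested. That gene was Sars2, which had no read in the E2-treated cluster 1 sums. DESeq2 and limma-voom called 0 of the 36 as well.

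Among the cytosolic genes Wars, Dars and Qars had the largest absolute changes with E2 in cluster 1. Wars was at 0.510 to 98.4 CPM (median 14.5) in control and at 0 to 34.4 CPM (median 6.40) with E2, with a log2 fold change of -1.35 (SE 1.05, adjusted p = 0.86 in edgeR). Dars was at 16.3 to 118 CPM (median 41.0) in control and at 2.86 to 104 CPM (median 19.9) with E2, with a log2 fold change of -0.79 (SE 0.69, adjusted p = 0.89 in edgeR). Qars was at 55.8 to 179 CPM (median 91.4) in control and at 14.1 to 161 CPM (median 58.8) with E2, with a log2 fold change of -0.60 (SE 0.44, adjusted p = 0.84 in edgeR). In all 3 genes the groups overlapped. Leaving out 1 library at a time gave -1.92 to -0.90 for Wars, -1.64 (without E2 library 11) to -0.54 for Dars and -1.04 (without E2 library 19) to -0.44 for Qars.

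Of the mitochondrial genes tested in cluster 1, Lars2 had the largest absolute change. It was at 145 to 294 CPM (median 223) in control and at 54.6 to 242 CPM (median 104) with E2. The groups overlapped, although 5 of the 7 E2 sums were below every control sum. The log2 fold change of Lars2 in cluster 1 was -0.69 (SE 0.33, p = 0.046, adjusted p = 0.66 in edgeR). Tars2 was at 1.68 to 89.6 CPM (median 30.4) in control and at 0 to 109 CPM (median 3.31) with E2, with a log2 fold change of -0.45 (SE 0.97, adjusted p = 0.97 in edgeR). Fars2 was at 2.04 to 71.7 CPM (median 41.3) in control and at 9.42 to 91.7 CPM (median 52.9) with E2, with a log2 fold change of 0.44 (SE 0.59, adjusted p = 0.94 in edgeR). Without 1 library at a time Lars2 was at -0.92 to -0.55, Tars2 at -1.64 (without E2 library 20) to -0.20 (without control library 8), and Fars2 at 0.24 (without E2 library 17) to 0.60. Aars2, Mars2 and Sars2 had no read in the E2-treated cluster 1 sums. There 3 reads of the total correspond to 0.847 CPM, a limit for counting error only that takes reads as independent. Over all groups, cells with a read held a median of 13 reads of Mars2, 3 of Sars2 and 2 of Aars2, so this limit does not bound their levels. By cell, 0 of 42 had a read of each gene, with an upper confidence limit of 8.41%. The shares in control cluster 1 cells lay below that limit, at 3.97% for Aars2, 2.38% for Mars2 and 7.14% for Sars2, so a decrease was not shown.

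Between cluster 1 and responsive cells the synthetase levels are given as a description, because the clusters were made from the expression of the same cells. Of 36 genes, 0 had an absolute log2 fold change above 0.5 with the same direction in all 17 libraries that held both clusters, beside 2.31% of 11398 genes lower and 0.404% higher in cluster 1. Rars was lower in cluster 1 in 16 of 17 libraries. Over those libraries, control and E2 together, Rars had a mean of 179 ± 80.9 CPM in cluster 1 and 418 ± 192 CPM in responsive cells. With condition as a covariate its log2 fold change was -1.07 (SE 0.18). In control libraries Rars was at 159 ± 53.4 CPM in cluster 1 (n = 10) and 283 ± 63.6 CPM in responsive cells (n = 10). With E2 it was at 208 ± 108 CPM (n = 7) and 592 ± 122 CPM (n = 9) in the same order. Eprs was also lower in cluster 1 in 16 of 17 libraries, at 287 ± 62.4 CPM against 396 ± 64.8 CPM, with a log2 fold change of -0.42 (SE 0.11).

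The 3 cytosolic genes with the lowest log2 fold changes were Wars at -1.23 (SE 0.48), Rars and Yars at -0.74 (SE 0.27). Wars was lower in cluster 1 in 14 libraries and Yars in 15 of 17. The 3 with the highest were Lars at 0.55 (SE 0.30), Gars at 0.52 (SE 0.24) and Nars at 0.52 (SE 0.19). Nars was higher in cluster 1 in 13 libraries, at 427 ± 176 CPM against 301 ± 49.1 CPM in responsive cells, and Lars and Gars were higher in 12. The median over the 20 cytosolic genes was -0.26, beside -0.06 over all genes tested. Summed over control libraries, the cytosolic level was 2344 ± 355 CPM in cluster 1 and 2525 ± 231 CPM in responsive cells, which is within the spread. With E2 it was 1959 ± 438 CPM and 2674 ± 266 CPM in the same order, a difference just above the sum of the SDs. On plain totals, without TMM, cluster 1 was the higher in control, at 2504 ± 371 CPM against 2402 ± 224 CPM. With E2 it was the lower on plain totals, at 2092 ± 534 CPM against 2503 ± 179 CPM, within the sum of the SDs.

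Of the mitochondrial genes, Hars2 (-2.12, SE 0.87), Mars2 (-1.76, SE 1.07) and Sars2 (-1.24, SE 0.98) had the lowest log2 fold changes in cluster 1. Each of these was read in at most 61 of 589 cells. Wars2 (1.11, SE 0.86), Fars2 (0.94, SE 0.41) and Cars2 (0.89, SE 0.87) had the highest, and Fars2 was higher in cluster 1 in 13 of 17 libraries. Fars2 shares sequence with Nrn1 and Cars2 with Naxd, each on the opposite strand. With 55.8% of its nonzero values whole, against 99.1% in Fars2, the reads of Cars2 are uncertain, as are those of Eprs, Iars, Qars and Mars. Lars2, the gene read most widely, was lower in cluster 1 in 13 of 17 libraries, with 183 ± 80.9 CPM in cluster 1 and 289 ± 79.8 CPM in responsive cells. In control cells the fibroblast markers summed to a median of 3813 CPM in cluster 1 and 2252 CPM in responsive cells. The granulosa and theca cell markers, of which 2 of 8 were in the table (Inha and Star), had median sums of 265 CPM and 48.9 CPM in the same order, and the part of either difference in the synthetase levels was not tested.

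**Figure D4:**
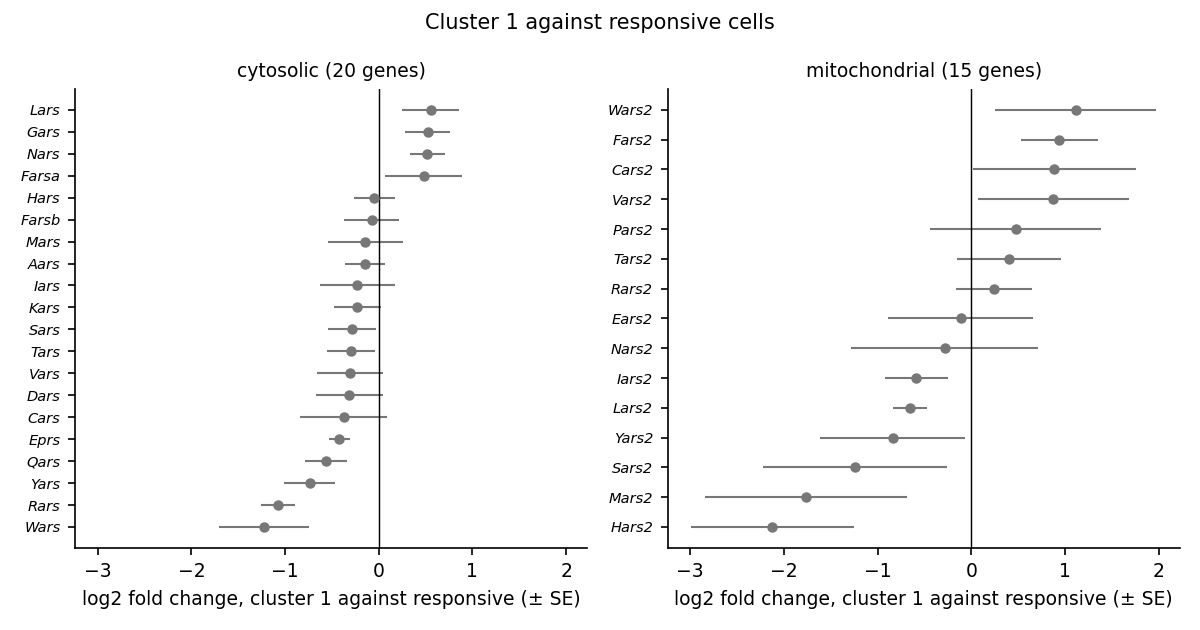
Log2 fold change of cluster 1 against responsive cells (x axis, bars are ± 1 SE from edgeR) for 20 cytosolic (left) and 15 mitochondrial (right) synthetase genes, shown without a test. Wars at -1.23 and Rars at -1.07 are the lowest cytosolic genes, and the mitochondrial genes with few reads have the longest bars.

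Many synthetase genes are known targets of the amino acid response, in which ATF4 binds composite C/EBP-ATF elements. The letters TGATGNAA, the core of that element, were searched on both strands in promoters from 250 bases before to 50 bases after the start site (RefSeq, GRCm38.p6), which were given for 27 of the 37 genes. The letters occur in 5 of 13 cytosolic promoters (38.5%) and in 0 of 14 mitochondrial ones, beside 4.51% of 27025 genes. Cars, Hars, Lars, Nars, Rars, Vars, Wars, Hars2 and Pars2 are among the genes for which no promoter was given, so they were not searched. A match in each of the 5 genes that hold the letters is printed below within 30 bases. It runs 5′ to 3′ on the strand of the gene, which stands in brackets. The capitals mark the 8 letters of the match, in either orientation. The matches define the 5 genes whose values with E2 follow them.
Aars, chr8:111033840-111033869 (+): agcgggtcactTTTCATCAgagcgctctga
Gars, chr6:55037960-55037989 (+): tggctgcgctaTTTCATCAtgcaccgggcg
Iars, chr13:49682126-49682155 (+): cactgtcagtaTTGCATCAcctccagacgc
Tars, chr15:11399655-11399684 (-): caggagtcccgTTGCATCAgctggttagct
Yars, chr4:129189895-129189924 (+): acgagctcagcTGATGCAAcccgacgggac

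These 5 genes did not move together with E2. In responsive cells their log2 fold changes ran from -0.27 in Aars to 0.51 in Iars, with a median of -0.11, and in cluster 1 cells from -0.54 in Gars to 0.58 in Tars, which was at 0.19 without E2 library 15. None was called in either. A match in these letters is a description of the sequence.

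Of 26 tested genes of the amino acid response, which include the transcription factors Atf4 and Ddit3 and the enzymes of serine and asparagine synthesis, 0 were called with E2 in responsive cells, beside 1.37% of all genes tested. Their median log2 fold change was 0.20, beside 0.02 over all genes. In edgeR 3 of the 26 had an unadjusted p below 0.05, beside 9.89% of all genes tested, and DESeq2 and limma-voom also called 0. In cluster 1, by the rule of the same direction in all 17 libraries, 2 of 26 were lower than in responsive cells, beside 2.31% of all genes. These were Ddit4, a stress-induced inhibitor of mTORC1 (log2 fold change -1.93), and Vldlr, the receptor of very low density lipoprotein (-4.52).

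The other genes of translation around the synthetases were not called with E2 in responsive cells either. That holds for 0 of 5 cytosolic elongation factor genes, 0 of 8 mitochondrial translation factor genes and 0 of 11 genes of accessory tRNA charging steps, such as editing and amidation. Their median log2 fold changes were -0.06, 0.22 and 0.79 in that order, and 2, 1 and 2 of them had an unadjusted p below 0.05 in edgeR, beside 9.89% of all genes tested. DESeq2 and limma-voom also called 0 in each list. The lowest adjusted p among these genes was that of the elongation factor gene Eef1b2, just short of both thresholds. It was at 1947 ± 215 CPM in control and 1401 ± 283 CPM with E2, with a log2 fold change of -0.46 (SE 0.12, adjusted p = 0.0505 in edgeR).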

How the data were processed

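The authors assigned reads to cells, quantified them with kallisto 0.44.0 against mouse transcripts (GRCm38 per the labels) and deposited estimated counts per gene and cell from tximport, after filtering cells and genes. There are no molecular identifiers, and 66.9% of values above 0 were whole. The cluster labels, made by the authors from imputed values, were read from the deposited metadata. The authors also deposited the mitochondrial share of each cell's reads in percent, computed with scater, with group medians of 2.08% to 3.55%. Counts were added up per library and cluster and rounded, without sums that held under 3 cells (3 cells in all). All genes were fitted in R 4.3.3 by the quasi-likelihood test of edgeR 4.0.16, after filterByExpr and TMM, with Benjamini-Hochberg adjustment, and the code was tested on simulated data. Alternatives used DESeq2 1.42.0 and limma 3.58.1 (voom), no filter, other scaling, thinned cells, at least 5 cells, all cells, the library as a block, and leaving out each library, which for cluster 1 was added after seeing the data. Genes named in full are the called ones and the 3 largest absolute changes per compartment and comparison, and the other synthetase genes are given by level, fold change or count. Eprs, Nars and Lars2 in responsive cells, and Rars in cluster 1, were chosen beyond that rule after their values were seen. The synthetase genes and lists were chosen with earlier results of these data known. The values of 1 mitochondrial synthetase gene, which is counted in the totals, and of 1 promoter match are not reported here. Intervals and limits cover counting error only.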

Additional observations from a re-analysis of the deposited data

Results flagged for a closer look

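Of 84 groups of libraries examined for a single library apart by Dixon's test, 12 were marked. Chance alone marks about 1 in 20 groups where values are normally distributed. Some groups held mostly zeros, such as Hars2 in E2-treated cluster 1 cells, at 0 in 6 of 7 sums, so that rate need not hold here. E2 library 15 gave 3 of the 12 marks in responsive cells: Rars was highest at 878 CPM (next 665), Dars highest at 172 CPM (next 58.0), and Lars2 lowest at 65.5 CPM (next 207). The fibroblast markers of that library summed to 4783 CPM in responsive and 9570 CPM in cluster 1 cells, against at most 2182 and 4608 CPM in the other E2 libraries, and their part in these values was not tested. Tars2 reached 96.6 CPM in 1 control library of responsive cells (next 30.4), and Mars2 reached 16.7 CPM in 1 E2 library of responsive cells (next 6.93).

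The other marks were in cluster 1 sums of few cells. Among the E2 sums the highest library was at 104 CPM for Dars, 1.43 CPM for Hars2, 372 CPM for Lars, 37.2 CPM for Pars2, 161 CPM for Qars and 73.7 CPM for Wars2. Among the control sums it was at 50.0 CPM for Hars2.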

How the results depend on the processing

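Rars was called higher with E2 in responsive cells under all 26 alternatives, with a log2 fold change of 0.99 to 1.16 and an adjusted p between 2.2e-10 and 0.00016, and the number of synthetase genes called was 1 each time, also when each library was left out in turn (1 to 1; 0.99 to 1.13 for Rars). Of these alternatives, at least 5 cells per sum repeated the main fit, because every responsive sum held at least 15 cells. In cluster 1 the number called was 0 under every alternative run, and for the interaction as well. For E2 in cluster 1, at least 5 cells per sum was the same fit as leaving out E2 library 15. No paired analysis was possible for E2 against control because control and E2 columns share no number; with the library as a replicate block the interaction of Rars was -0.86 (adjusted p = 0.58 in edgeR, 0.42 to 0.64 over the alternatives). The share of responsive cells with a Rars read was 80.5% in control and 93.3% with E2 after thinning, and 83.8% in control and 95.4% with E2 with at least 2 reads required, where the difference exceeded the sum of the SDs. With the library as a block, Wars in cluster 1 against responsive cells was at -2.12, Yars at -1.08 and Hars2 at -3.60 on the log2 scale, and the median of all genes moved from -0.06 to -0.42. The cause was not tested. In cluster 1, 12 of the 17 mitochondrial genes had too few reads for the test.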
